A study of Ovis aries with 10 samples.

Results

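FCGR3A and MS4A7 encode proteins of the cell surface that are used to recognise cells of the monocyte and macrophage lineage. FCGR3A, also called CD16, is a low-affinity receptor for the Fc part of immunoglobulin G and passes its signal through partner chains that carry activation motifs. Natural killer cells and, in several species, neutrophils carry it too. MS4A7 belongs to the membrane-spanning 4A family, whose members cross the membrane several times, and is best known from monocytes and tissue macrophages. Its family member MS4A1 is the B cell antigen CD20. Lipopolysaccharide (LPS), a component of the wall of Gram-negative bacteria, activates monocytes through toll-like receptor 4.

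Both genes were measured in peripheral blood mononuclear cells (PBMC) of 5 singleton sheep fetuses of Columbia-Rambouillet breeding, each sampled on Day 1 and on Day 5. The Day 1 sample was taken at 123 days of gestation before any LPS. The Day 5 sample came from the same fetus at 127 days, before that day's bolus. By then the fetus had received LPS into a vein 3 times, with 0.3 µg given on Day 1, then 1.5 µg (Day 3) and 3 µg (Day 4). No PBMC of fetuses without LPS were analysed here, so LPS and gestational age cannot be told apart in any difference between the days. The cells came from a density gradient with lysis of red cells and no sort is described.

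The 2 genes are FCGR3A (ENSOARG00020000656, chromosome 1, 112980200 to 112991201, minus strand) and MS4A7 (ENSOARG00020017289, chromosome 15, 81737395 to 81757458, plus strand), on the assembly ARS-UI_Ramb_v2.0. They are 2 of 30620 genes in the deposited table, of which 20046 had a value other than 0 in any library. They were selected on the difference between Day 5 and Day 1 in the same 10 libraries, so that difference is given as a description without a test. Values are rlog values, which are log2 expression values normalised for library size and drawn towards the mean of the gene. The question was how far the 2 genes moved together across libraries and within fetuses.

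Before LPS, FCGR3A had rlog values of 7.21, 6.99, 7.09, 7.93 and 7.66 in fetuses 1 to 5. On Day 5 it was 7.75, 8.20, 9.16, 8.82 and 8.53 in the same order of fetuses. Every fetus had the higher value on Day 5, yet the days overlapped, because the Day 5 library of fetus 1 lay below the Day 1 library of fetus 4. Day 1 libraries averaged 7.38 ± 0.40 (SD, n = 5), and Day 5 libraries averaged 8.49 ± 0.55 (SD, n = 5). The change within fetuses was 0.54, 1.21, 2.07, 0.89 and 0.87 in fetuses 1 to 5, with a mean of 1.12 ± 0.58 (SD, n = 5), or 2.17-fold. The rise of fetus 3 was more than the mean by over 1 SD, and without that fetus the mean change was 0.88. In bulk PBMC, a larger share of cells that carry the transcript and more transcript per cell cannot be told apart.

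MS4A7 had rlog values of 5.55, 6.45, 6.06, 5.72 and 6.56 on Day 1 in fetuses 1 to 5. Its Day 5 values were 6.18, 6.87, 7.71, 7.47 and 7.08. Here too every fetus was higher on Day 5 and fetus 1 made the days overlap, since its Day 5 library lay below the Day 1 libraries of fetuses 2 and 5. Its average was 6.07 ± 0.44 (SD, n = 5) before LPS, compared with 7.06 ± 0.59 (SD, n = 5) on Day 5. Within fetuses the change was 0.62, 0.43, 1.64, 1.75 and 0.52, with a mean of 0.99 ± 0.65 (SD, n = 5), or 1.99-fold. These changes lay far apart, at 0.62 or less in fetuses 1, 2 and 5 and at 1.64 or more in fetuses 3 and 4. With fetus 1 left out, neither gene had overlapping days.

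**Figure D1:**
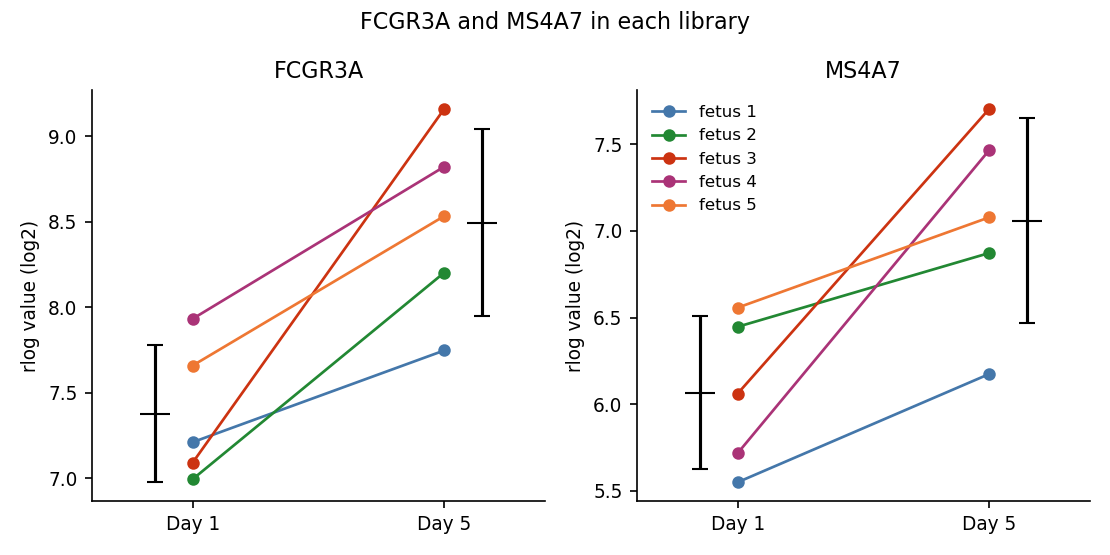
rlog values (log2) of FCGR3A (left) and MS4A7 (right) on Day 1 and Day 5, a line for each of the 5 fetuses, with mean and SD beside the points in black. All 5 lines rise in both panels, and the Day 5 value of fetus 1 (7.75 for FCGR3A and 6.18 for MS4A7) lies among the Day 1 values.

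Across all genes the number of calls was small. A gene was called when the adjusted p of limma was under 0.05 and its fold change was over 1.5. On this rule limma called 4 of 20046 genes (0.0200%), all higher on Day 5, and 27 (0.135%), 22 higher and 5 lower, in the paired model with the fetus as a replicate block. FCGR3A and MS4A7 were among neither set, so 0 of 2 were called. The count of 4 changed when 1 fetus was left out at a time. Limma without the block then called 6 genes without fetus 1 and 0 without any other fetus. In the runs with 0 calls, 785 to 1008 genes had an unadjusted p under 0.05. Chance alone gives a share of about 0.05 of the 20046 tested genes at that threshold, so these are not read as changed genes. The paired count was not examined with fetuses left out. Every Day 5 library lay above every Day 1 library for 0 of the 2 genes and for 0.469% of all tested genes. The share of tested genes higher on Day 5 in all 5 fetuses was 3.53%, and both genes were among them. Nothing is read from these counts, since the choice of the genes used the same contrast.

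Day took 62.8% of the variation of FCGR3A over the 10 libraries, differences between fetuses 23.4% and the remainder 13.8%. The shares for MS4A7 were 53.1%, 28.8% and 18.0%. For both genes the day was thus the largest part, as their selection favours, while the remainder is the part by which fetuses changed unequally. FCGR3A lay at the 84.9 percentile of mean rlog value among tested genes and MS4A7 at the 69.6 percentile.

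The 2 genes did not change by the same amount in the same fetus. The change of FCGR3A minus that of MS4A7 was -0.09, 0.78, 0.42, -0.86 and 0.35 in fetuses 1 to 5. Its mean was 0.12 ± 0.63 (SD, n = 5), so the mean changes differed by less than the spread between fetuses, and the sign was mixed, with FCGR3A ahead in 3 fetuses and MS4A7 ahead in 2. The mean was -0.04 without fetus 2 and 0.37 without fetus 4, and the median was 0.35. Of the 10 pairs of fetuses, 5 stood in the same order by the changes of both genes. Fetus 3 had a large rise in both genes, fetus 4 had the largest rise of MS4A7 but a middle rise of FCGR3A, and fetus 2 had the second largest rise of FCGR3A and the smallest of MS4A7.

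The clearest pattern lay in the fetuses' order within each day. On Day 5 both genes ordered the fetuses identically, from fetus 1 through 2, 5 and 4 to fetus 3, so all 10 pairs of fetuses agreed. How many of all genes gave this Day 5 order was not counted, and S100A9, followed below, gave it too. On Day 1 the order of FCGR3A was 2, 3, 1, 5 and 4 and that of MS4A7 was 1, 4, 3, 2 and 5, and 4 of 10 pairs agreed. Fetus 4 shows the difference most plainly. Before LPS it had the highest FCGR3A and the second lowest MS4A7, and on Day 5 it was second highest for both.

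**Figure D2:**
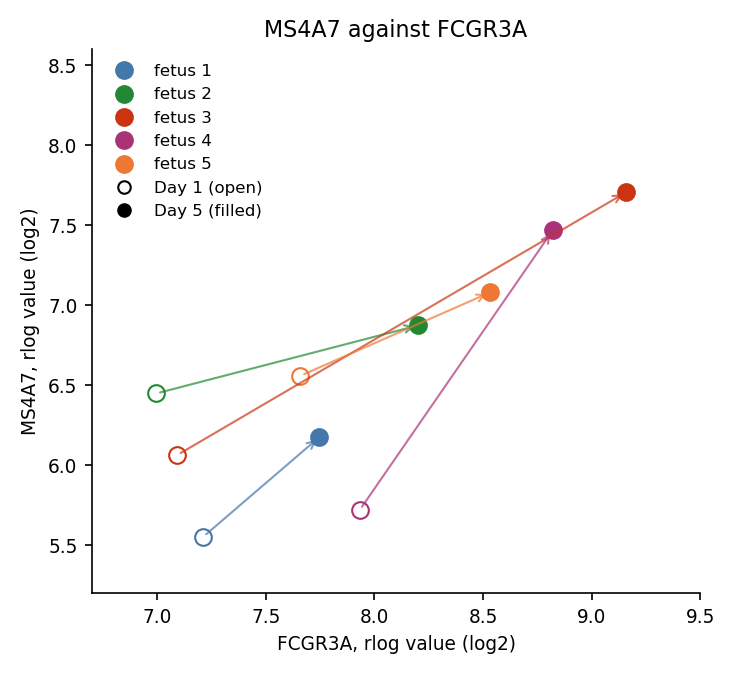
MS4A7 against FCGR3A, both as rlog values (log2), with open points for Day 1, filled points for Day 5 and an arrow for each of the 5 fetuses. The filled points run along a rising line in the order 1, 2, 5, 4 and 3, and the open points are scattered.

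The same can be read from the gap between the genes, the rlog value of FCGR3A minus that of MS4A7 in a library. A constant added to all log2 values of a library leaves the gap unchanged. The gap is not corrected for the length of the transcripts, so only its variation is read. On Day 1 the gap was 1.66, 0.55, 1.03, 2.21 and 1.10 in fetuses 1 to 5. On Day 5 it was 1.57, 1.33, 1.45, 1.35 and 1.45. The gap thus spread widely before LPS and hardly at all on Day 5, whereas its mean was 1.31 on Day 1 and 1.43 on Day 5.

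The SD of the gap was 0.64 on Day 1 and 0.10 on Day 5 (n = 5 each), a ratio of 6.65. Genes that vary independently with these SDs would have a gap with an SD of 0.60 on Day 1 and of 0.81 on Day 5. The Day 1 spread was therefore close to that of unrelated genes, and the Day 5 spread was far below it even though each gene varied more between fetuses on Day 5 than on Day 1. This pattern was noticed in these values and is given as a description only. An exact permutation test run on it afterwards carries no weight, as 5 fetuses cannot give a two-sided p under 0.05. With 1 fetus left out at a time the ratio was between 4.60 (without fetus 4) and 10.7 (without fetus 1).

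Set beside other genes, the Day 5 gap was narrow. Among 10022 other genes at or above the median of mean rlog value, MS4A7 ranked 3 by the smallest SD of its Day 5 gap to FCGR3A (0.0299% of genes had a gap as narrow), where the median SD was 0.60. In the other direction FCGR3A ranked 5 for MS4A7 (0.0499%), with a median SD of 0.63. Before LPS the ranks were 8818 and 8438, beyond the middle of the list, with median SDs of 0.47 and 0.51. The SD of a gap depends on how much each gene varies as well as on likeness, so these are not ranks of likeness alone. The ranks describe these 10 libraries and were computed after the pattern had been seen. The level of MS4A7 rose as the spread of the gap fell, with an authors' mean of 20.6 on Day 1 and 79.2 on Day 5. Its part in the Day 1 spread was not tested.

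**Figure D3:**
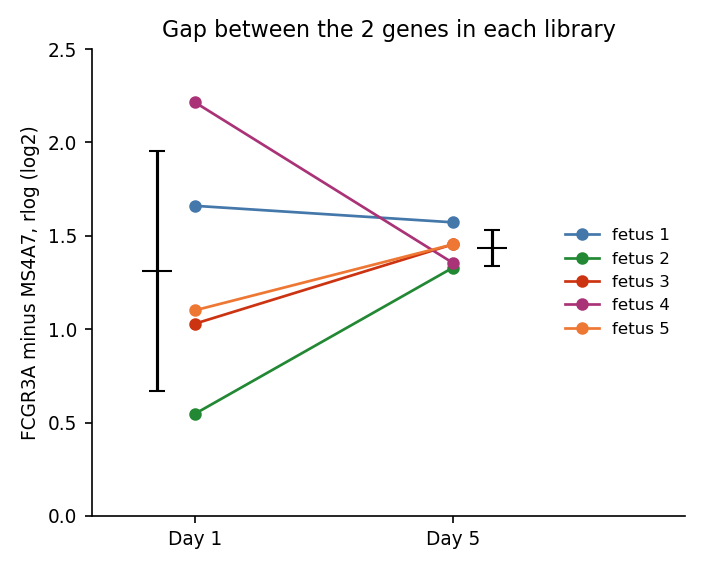
Gap between FCGR3A and MS4A7 (difference of rlog values, log2) on Day 1 and Day 5, a line for each of the 5 fetuses, with mean and SD in black. The gap runs from 0.55 to 2.21 on Day 1 and from 1.33 to 1.57 on Day 5.

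Over all 10 libraries the likeness of the 2 genes, measured by Pearson's r as a description without a p, was 0.821. The libraries share fetuses in pairs, and the measure holds the day difference the genes were selected on. Taking each library as a deviation from the mean of its day removes that difference, and r was then 0.583 over the same 10 libraries. It fell to 0.239 without fetus 1, which was low for both genes on Day 5 and for MS4A7 on Day 1. The deviations pool days that differed. Taken by day, as a description over 5 fetuses each, r was -0.161 on Day 1 and 0.989 on Day 5. Leaving out 1 fetus at a time gave -0.563 to 0.320 on Day 1 and 0.988 to 0.996 on Day 5, so the likeness within Day 5 did not rest on a single fetus. The r by day was not ranked among all genes, so it is not read as particular to the pair. Of the genes followed below, S100A9 had a Day 5 r of 0.983 to FCGR3A and 0.971 to MS4A7. CXCR2, IGLL1 and GBP6 had 0.551 to 0.744. Over the 5 changes within fetuses r of FCGR3A with MS4A7 was 0.479.

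Many genes were as much like either of them as they were like each other. When the same 10022 genes were ordered by r with FCGR3A over the 10 libraries, MS4A7 stood at place 176 (1.76% of genes were as like), against a median r of -0.00392. FCGR3A stood at place 159 (1.59%) in likeness to MS4A7. These places were unstable: they were 88 to 609 and 93 to 658 with 1 fetus left out, and 290 and 332 without the Day 1 library of fetus 3. By deviations from the day means the places were 840 (8.38%) and 1071 (10.7%), and by changes within fetuses they were 2681 (26.8%) and 2067 (20.6%). The gene most like FCGR3A over the 10 libraries was ENSOARG00020032120, with r of 0.959, and with 0.807 to MS4A7. It changed by 0.37 ± 0.20 (SD, n = 5) and was higher on Day 5 in 5 of 5 fetuses. MS4A7 was most like ENSOARG00020040246, with r of 0.955, and with 0.806 to FCGR3A. This gene changed by 0.70 ± 0.54 (SD, n = 5), again with 5 of 5 fetuses higher. Neither identifier is paired with a symbol. By deviations from the day means the highest r was 0.957 for FCGR3A and 0.964 for MS4A7, each with a different gene, and these genes had r of 0.549 and 0.498 with the other of the pair.

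**Figure D4:**
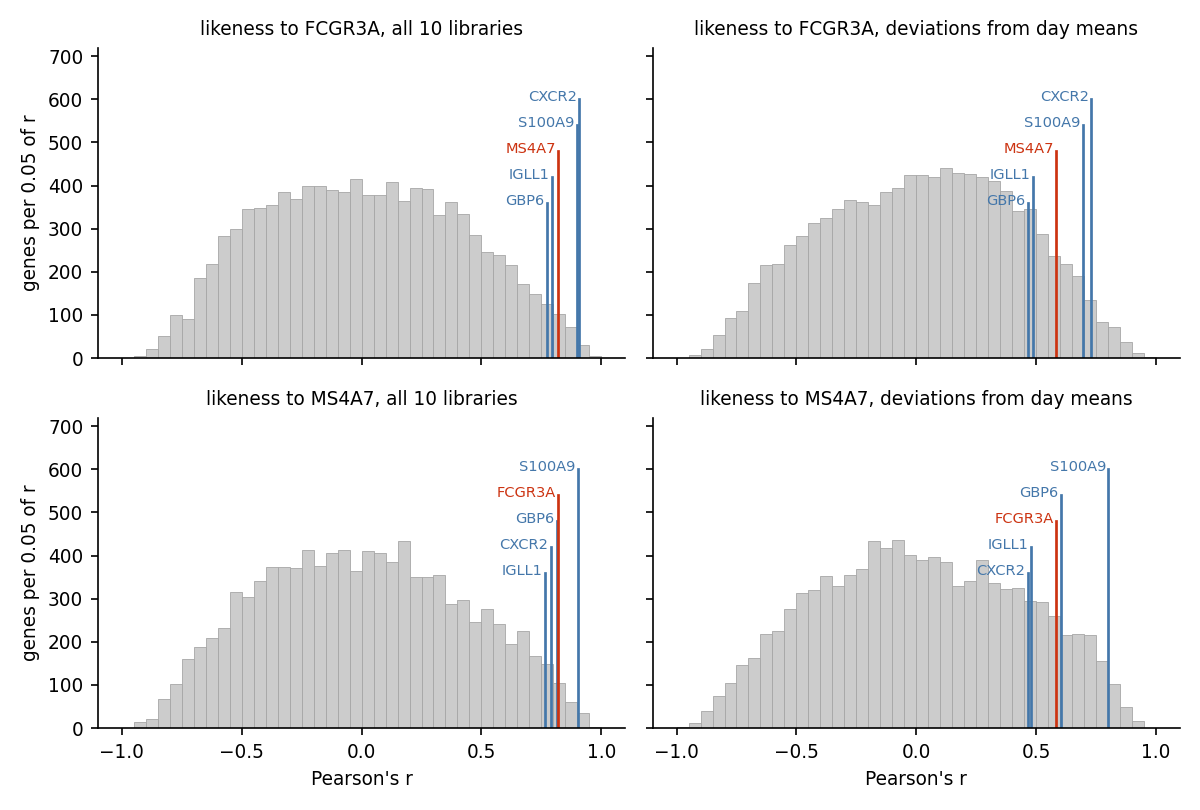
Number of genes by Pearson's r with FCGR3A (top) and MS4A7 (bottom) among 10022 genes at or above the median of mean rlog value, over all 10 libraries (left) and over deviations from the day means (right). Lines mark the partner gene in red, at r of 0.821 (left) and 0.583 (right), and 4 other immune genes in blue.

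Of the other genes that the study grouped as inflammatory or LPS-responsive, 4 could be followed in each library. S100A9 encodes a calgranulin, an abundant calcium-binding protein of neutrophils and monocytes. CXCR2 is a receptor for chemokines that draw neutrophils. IGLL1 encodes an immunoglobulin lambda-like chain of the B lineage, and GBP6 is an interferon-induced guanylate-binding protein. The study chose these genes from the same contrast, so a shared rise is no independent evidence of likeness.

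S100A9 was closer to both genes than they were to each other, with r of 0.899 to FCGR3A and 0.904 to MS4A7 over the 10 libraries, and 0.695 and 0.802 over deviations from the day means. The rlog values of S100A9 were 8.38, 8.91, 9.26, 8.80 and 8.67 on Day 1 and 9.90, 10.48, 12.12, 11.73 and 10.83 on Day 5 in fetuses 1 to 5. On Day 5 S100A9 ordered the fetuses as FCGR3A and MS4A7 did, with 10 of 10 pairs alike for each. Its gap to them was wider than theirs to each other, with an SD of 0.38 to FCGR3A and 0.36 to MS4A7 on Day 5, because S100A9 spread over a larger range. On Day 1 S100A9 shared 4 of 10 pairs with FCGR3A and 6 of 10 with MS4A7.

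CXCR2 was closer to FCGR3A than to MS4A7, with r of 0.909 against 0.790 over the 10 libraries and 0.729 against 0.464 over the deviations. Its rlog values were 4.78, 4.54, 4.57, 4.94 and 4.79 on Day 1, which order the fetuses exactly as FCGR3A does, with 10 of 10 pairs alike. Fetuses 1 and 5 were nearly equal there, at 4.779 and 4.786, and the authors' Day 1 mean of CXCR2 was low, at 7.13. How many other genes share this order was not counted. The gap of CXCR2 to FCGR3A had an SD of 0.26 on Day 1. With MS4A7, CXCR2 shared 4 of 10 pairs on that day. GBP6 had rlog values of 8.37, 8.88, 8.31 and 8.58 in fetuses 1 to 4 on Day 1 and its highest Day 1 value in fetus 5. It shared 8 of 10 pairs with MS4A7 at a gap SD of 0.27 and 6 of 10 with FCGR3A. On Day 5 neither of these orders was shared as closely with its Day 1 partner. CXCR2 shared 8 of 10 pairs with each gene, with values of 5.28, 5.64, 6.40, 5.88 and 6.62. GBP6 shared 7 of 10 with each, at 8.76, 9.46, 9.61, 10.45 and 10.87.

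By the changes within fetuses, MS4A7 followed S100A9 most closely of the genes named here, with 8 of 10 pairs in the same order. S100A9 changed by 1.52 and 1.57 in fetuses 1 and 2, by 2.86 and 2.92 in fetuses 3 and 4, and by 2.16 in fetus 5. FCGR3A shared 7 of 10 pairs with S100A9 and 7 with CXCR2, whose changes were 0.50, 1.09, 1.83, 0.94 and 1.84. Pearson's r over the changes ordered the genes differently for FCGR3A, with 0.782 for IGLL1, 0.659 for CXCR2, 0.514 for S100A9 and 0.120 for GBP6. Among the 10022 genes their places by this r were 932, 1641, 2473 and 4620, so an r of 0.782 was not rare over 5 fetuses. IGLL1 changed least, by 0.63 ± 0.47 (SD, n = 5), with 6 pairs in the order of FCGR3A and 7 in that of MS4A7. The mean change of GBP6 was 1.20 ± 0.70 (SD, n = 5), with 5 and 6 pairs. None of the 4 genes was called by limma in the reported fit without the block. In the paired model S100A9 was called (log2 change 2.21, standard error 0.21, limma adjusted p = 0.00340, higher in 5 of 5 fetuses). Over the other alternatives its limma adjusted p ranged from 0.00774 to 0.882. Without the block, S100A9 and CXCR2 were called after median centring (limma adjusted p = 0.00774 and 0.0260) and without the lowest 25% of genes (0.0144 and 0.0443).

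**Figure D5:**
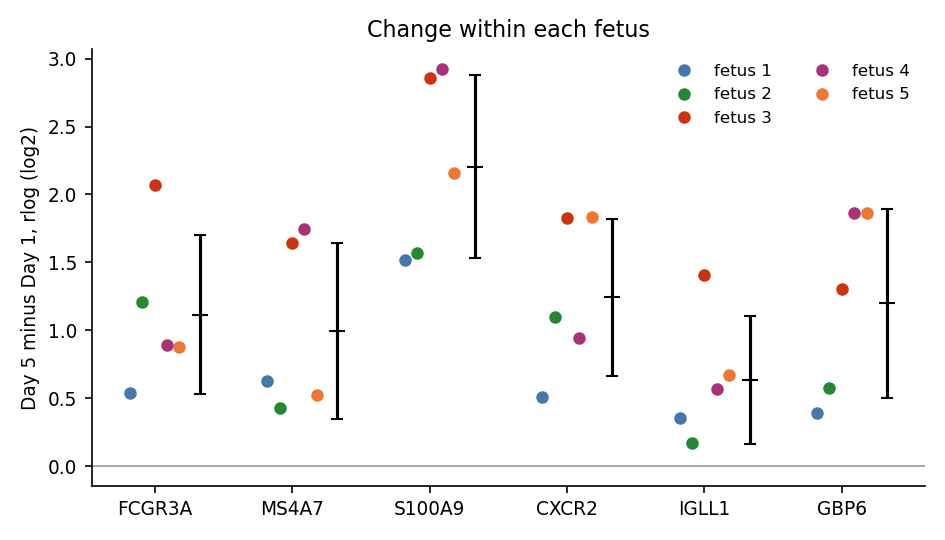
Change within each of the 5 fetuses (Day 5 minus Day 1, rlog, log2) for FCGR3A, MS4A7 and 4 other immune genes, with mean and SD in black. All changes lie above 0, and fetuses 3 and 4 lead for MS4A7 and S100A9 whereas fetus 3 leads for FCGR3A.

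The authors' pooled means for each day, a separate deposited quantity without an error, had the same direction. The authors' mean of FCGR3A was 69.3 on Day 1 and 221 on Day 5, and that of MS4A7 was 20.6 and 79.2. The means were also part of the choice of the genes. Taken back from the log2 scale, the rlog values averaged 172 and 381 for FCGR3A and 69.6 and 142 for MS4A7, so the rlog values showed a smaller difference between the days. The level of MS4A7 per level of FCGR3A moved from 0.297 to 0.358 by the authors' means and from 0.405 to 0.373 by the rlog values. Whether MS4A7 gained on FCGR3A therefore depended on the quantity used, and the cause was not tested. These ratios are not corrected for length, and only their movement between days is read.

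The cell types behind the 2 transcripts could be examined only in part. Of 20 monocyte and macrophage markers, 8 were in the authors' comparison table, which lists 80 genes selected on the day contrast, and 0 could be followed in each library, so no summed level per library can be given. The defining markers CD14 and CSF1R were not among them, and the name monocyte genes was thus not checked against the data. By the authors' means 7 of the 8 were higher on Day 5, as were 59 of all 80 genes of the table (73.8%), so the count is not read as particular to these markers. The complement genes C1QA and C1QB, made mainly by macrophages, had means of 14.6 and 12.2 on Day 1 and 330.0 and 178 on Day 5. CFP, which encodes properdin, had 188 and 536, and ADGRE5, an adhesion receptor of leukocytes, 659 and 1220.0. CD93, a receptor of monocytes and endothelial cells, went the other way, from 33.3 to 9.41.

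Markers of other cells in the table were also mostly higher on Day 5, and their counts have the same background of 59 of 80 genes. Of 10 neutrophil markers 6 were in the table, all with a higher mean on Day 5, among them S100A8 with 28.8 and 286, S100A12 with 80.7 and 571 and VNN2 with 37.7 and 135. S100A9 was the most abundant of the 6, and the calgranulins are also made by monocytes. Of 6 B cell markers 4 were present, all higher, with CD79B at 217 and 467. From the lists of 10 natural killer cell, 6 T cell and 3 platelet markers 0 were in the table, and from the 6 red cell precursor markers only XK was, with 45.8 and 7.93. A table of selected genes does not show that the absent markers did not change. The part of cell composition in the changes of FCGR3A and MS4A7 was not tested.

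Relatives of both genes were sparse in the same table. Of 12 Fc gamma receptors and signalling partners it held only FCGR3A itself. Of 13 members of the MS4A family it held MS4A7 and 2 others. The authors' means on Day 1 and Day 5 were 143 and 338 for MS4A1 and 110.0 and 339 for MS4A8, in a table where 73.8% of genes were higher on Day 5. MS4A1 lies 69976 bases beyond the end of MS4A7 on the same strand. In the RefSeq annotation of ARS-UI_Ramb_v3.0, the nearest protein-coding genes on either side of FCGR3A are HSPA6 and FCGR2B. FCGR2B is a receptor of the same family, and how reads that fit related receptor genes were divided is uncertain.

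The share of a single transcript of very high abundance moved against both genes. ENSOARG00020004525, named after its values were seen and without a symbol, made up 71.7%, 69.8%, 65.9%, 66.5% and 66.0% of the summed linear rlog values in the Day 1 libraries of fetuses 1 to 5. On Day 5 its share was 66.8%, 66.8%, 63.8%, 59.1% and 64.1%, lower in 5 of 5 fetuses. Over the 10 libraries, which share fetuses and days, the share had r of -0.769 with FCGR3A and -0.745 with MS4A7. Its part in the changes was not tested.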

How the data were processed

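PBMC RNA of 5 fetuses on Day 1 and Day 5 (10 libraries) was sequenced by the authors. Per the study's methods and the submitters' processing notes, reads were checked with FastQC 0.11.9, aligned with STAR 2.7.3a to ARS-UI_Ramb_v2.0 and counted with featureCounts 2.0.3. The authors deposited rlog values, log2 values of normalised counts shrunk towards the mean of each gene by DESeq2, with settings not given in the sources used here. The authors' comparison table holds pooled least-squares means and totals, used here as signal values. The study's methods name DESeq2 for differential expression, and whether it made these means is not stated. The table's fold changes and p-values were not used. The 2 tables are not on 1 scale: linear rlog values were 2.48 times the authors' mean for FCGR3A on Day 1, and 10.5 times for IGLL1.

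The values hold no read counts, so sequencing depth per library and its counting error cannot be stated. Of 30620 genes, 10574 were listed at 0 in all libraries and left out. limma 3.58.1 (R 4.3.3, mean-variance trend, Benjamini-Hochberg over 20046 genes) compared the days, without and with the fetus as a block. The design had foreseen counts or log values, and the log values decided for limma. Same-fetus libraries pair by animal number. Their deviations from the day means correlated at 0.174 to 0.481 across genes, and those of different fetuses at most at 0.136. Any pair of libraries correlated at 0.990 to 0.997. Other values were computed with Python 3.11.15, numpy 2.4.6 and pandas 2.3.3. The computations were tested on simulated data.

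The members and gene lists were chosen with earlier results of these data known. The named genes are the pair, the genes of the study's inflammatory and LPS response clusters that carry an identifier, the gene most like each of the pair, and listed markers found in the comparison table. The symbols of 6 identifiers come from the study's own tables, whose entries match the deposited table row for row. The reference table of gene names holds 0 Ensembl identifiers. The gap between the genes, its spread and the runs without the Day 1 library of fetus 3 were chosen after seeing the data. Other alternatives were median centring, quantile normalisation, other measures of likeness, a filter on the lowest 25% of genes and leaving out each fetus.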

Additional observations from a re-analysis of the deposited data

Results flagged for a closer look

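The Day 1 library of fetus 3 stood apart from the other Day 1 libraries on the second principal component of all genes (15.5% of the variance), at 148 where the others lay between -20.5 and 10.6. Its gap to the nearest library was 0.816 of the range of the 5, above Dixon's critical value for 5 values. Of 25 groups of 5 values checked this was the only one past that value, and chance gives about 1 in 20, or 1.25 in 25. In that library FCGR3A was 7.09 and MS4A7 was 6.06, both inside the range of the other Day 1 libraries. Without it the mean of Day 5 was higher than that of Day 1 by 1.04 for FCGR3A and 0.99 for MS4A7, the likeness over the remaining libraries was 0.814, and the ratio of the gap's SD was 7.45. limma then called 1 gene.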

How the results depend on the processing

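The changes of FCGR3A (0.88 to 1.26) and MS4A7 (0.62 to 1.13) stayed above 0 and within 1 SD of the reported means under all 9 alternatives run for each. The difference of the changes lay between -0.04 and 0.37 and was below 0 only without fetus 2. Likeness over the 10 libraries was 0.725 to 0.928, and over deviations from the day means 0.239 to 0.849, lowest without fetus 1 and highest on the linear scale.

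The number of genes called by limma was the least stable value: 4 as reported, 27 with the fetus as a replicate block, 19 after median centring, 17 without the lowest 25% of genes, 1 after quantile normalisation, 1 without the Day 1 library of fetus 3 and 0 without a mean-variance trend (1302 at an unadjusted p under 0.05). It was 0 to 6 with 1 fetus left out. Chance alone gives a share of about 0.05 of tested genes at an unadjusted p under 0.05, so the 1302 are not read as changed genes. All 4 reported calls were higher on Day 5, against 22 higher and 5 lower with the block, 16 and 3 after median centring, and 14 and 3 without the lowest 25% of genes. FCGR3A and MS4A7 were called under none of these. Of the 4 other genes followed, S100A9 was called with the block, and S100A9 and CXCR2 after median centring and without the lowest 25% of genes.

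The place of MS4A7 in likeness to FCGR3A, 176 as reported, was 840 by deviations from the day means, 2681 by changes within fetuses, 293 by Spearman's rank correlation, 290 without the Day 1 library of fetus 3 and 88 to 609 with 1 fetus left out. The place of FCGR3A in likeness to MS4A7, 159 as reported, was 1071, 2067, 342, 332 and 93 to 658 in the same runs. The causes were not tested. The ratio of the gap's SD was 4.60 to 10.7 with 1 fetus left out and 5.57 to 7.45 otherwise.

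The number of fetuses, 5, limits every statement on order, and the rlog values hold no read depth.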
